A study of Mus musculus with 48 samples.

Results

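The glutathione S-transferases were described as 10 genes, *Gstp1*, *Gstm1*, *Gstm5*, *Gsta4*, *Gstt1*, *Gsto1*, *Gstz1*, *Gstk1*, *Mgst1* and *Mgst3*, chosen by their symbols as rows of both expression tables. All 10 were found among the 27086 genes of the B6 table and the 18943 genes of the *APOE*-TR table, with 16952 symbols in both. RNA of the cerebral cortex was sequenced from 48 mice in 12 groups of 4, exposed to nPM, the nano-sized subfraction of urban particulate air pollution, or to filtered air as control. The 16 B6 mice (C57BL/6J, labelled Wt) were 4 months old and were exposed for 5 h a day, 3 days a week, for 8 weeks, as female controls, female nPM mice, male controls and male nPM mice. The 32 *APOE*-TR mice were 6 months old, were exposed by the same daily schedule for 15 weeks, and carried either human *APOE3* or human *APOE4* (labelled E3 and E4) in place of mouse *Apoe*, with the same 4 combinations of sex and air for each allele. The 2 strains were exposed separately, with different nPM batches, and stand in separately normalized tables, so strain, exposure and table cannot be told apart, and no test was made between them. No source names a library batch within a table, and the labels do not say whether mice shared a cage or litter.

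Glutathione S-transferases join the thiol of glutathione to electrophiles such as lipid aldehydes, quinones and products of polycyclic aromatic hydrocarbons, which makes them soluble and marks them for export. The soluble enzymes form classes by sequence (pi, mu, alpha, theta, omega, zeta), the kappa enzyme sits in mitochondria and peroxisomes, and the microsomal enzymes *Mgst1* and *Mgst3* are unrelated membrane proteins with overlapping chemistry. Many of the genes are known targets of NRF2 (*Nfe2l2*), which binds antioxidant response elements when electrophiles release it from KEAP1, and some respond to the aryl hydrocarbon receptor, which binds xenobiotic response elements. In brain the mu and pi enzymes are abundant in glia, astrocytes and oligodendrocytes among them.

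RefSeq promoters of build GRCm38.p6, from 250 bases before to 50 bases after the start of transcription, were matched for 9 of the 10 genes, with 12 promoters in all. The core of the antioxidant response element, TGACNNNGC on either strand, lies in the promoters of *Gstm5* and *Mgst1* and in 12.408% of the 32544 promoters of this length that were searched. The search left out repeated sequences and a chromosome that holds none of the 10 genes. The core of the xenobiotic response element, GCGTG on either strand, lies in promoters of *Gstp1*, *Gstm1*, *Gstm5* and *Mgst3* and in 32.581% of the promoters searched. The promoters of *Gstm5* and *Mgst1* are printed because they hold the antioxidant core and because these genes showed wide spreads among *APOE*3 females. Each is read along the strand of its gene, with the antioxidant match in capitals, and a match is a description of the letters and not a site of binding.
Gstm5, chr3:107895604-107895903, plus strand: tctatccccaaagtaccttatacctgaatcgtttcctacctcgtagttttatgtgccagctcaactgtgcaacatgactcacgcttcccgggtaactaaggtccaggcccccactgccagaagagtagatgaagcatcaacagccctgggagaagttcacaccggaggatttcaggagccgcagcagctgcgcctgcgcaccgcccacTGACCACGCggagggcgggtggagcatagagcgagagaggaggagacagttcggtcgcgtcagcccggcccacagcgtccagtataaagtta
Mgst1, chr6:138140277-138140576, plus strand: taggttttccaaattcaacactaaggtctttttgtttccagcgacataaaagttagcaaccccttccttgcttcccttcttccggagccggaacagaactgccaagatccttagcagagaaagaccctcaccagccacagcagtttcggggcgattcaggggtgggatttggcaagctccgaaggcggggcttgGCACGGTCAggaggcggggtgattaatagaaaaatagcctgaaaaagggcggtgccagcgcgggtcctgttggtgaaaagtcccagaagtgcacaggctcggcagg
In *Gstm5* the antioxidant match begins 42 bases before the start and overlaps a xenobiotic core read on the other strand, which begins 38 bases before it. In *Mgst1* the antioxidant match begins 56 bases before the start and is read on the minus strand.

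Libraries that stood apart touch most results in *APOE*-TR females. Depth, as reads recovered from the deposited values, was 17.83 to 31.26 M reads in *APOE*-TR mice and about 2.05 to 24.4 M reads in B6 mice. The first component of the *APOE*-TR table held 60.8% of the variance over 15972 genes, and *APOE*3 female controls 61 and F6 lay at 116.7 and 89.8 on it, ahead of *APOE*3 female nPM 55 at 48.1. Their levels were lower for longer transcripts. The slope of log2 level, relative to the table's mean, on log2 transcript length was -0.588, -0.431 and -0.238 in these 3 mice and -0.162 to 0.174 in the other 29. The lowest of the 29 were *APOE*3 female controls 63 and 52, at -0.162 and -0.119, below all *APOE*4 female controls (-0.113 to 0.0011). They also lay below *APOE*3 nPM females 59, 67 and 70 (-0.0873 to -0.0052). The allele fit in female controls without 61 and F6, and the nPM fit without nPM 55 as well, thus still compare groups apart in slope. Values without controls 61 and F6, or without nPM 55 as well, stand beside the main results of the fits that use them. In B6 mice, male control 0 stood apart, at 72.2 on a first component with 29.7% of the variance and with a slope of -0.352. Mouse *Apoe* was at 8.78 to 28.89 CPM in *APOE*-TR mice and at 162.9 to 506.1 CPM in B6 mice, and *Xist* and *Ddx3y* matched the labelled sex in all 48. All markers of neurons, astrocytes, oligodendrocytes, microglia and endothelium were above the lowest value in every mouse. Fewer cells of a type and less RNA per cell cannot be told apart in these bulk samples.

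Levels were compared between genes only per length, as TMM-scaled CPM per kb of transcript, averaged over the groups of a table. The mu enzymes led in both tables. *Gstm5* was at 70.7 and *Gstm1* at 45.8 CPM per kb in B6 mice, and *Gstm5* was the higher of the pair in 15 of 16 mice. In *APOE*-TR mice *Gstm1* was at 59.2 and *Gstm5* at 59.03 CPM per kb, with *Gstm1* higher in 27 of 32 mice. *Mgst3*, the microsomal enzyme with a role in lipid mediator and peroxide metabolism, was at 37.5 CPM per kb in B6 mice and 30.3 in *APOE*-TR mice. *Gstp1*, the pi enzyme, was at 18.4 and 34.7. *Gsta4*, the alpha enzyme with a preference for the lipid aldehyde 4-hydroxynonenal, was at 18.7 and 16.2. Many neighbouring ranks did not keep their order in every mouse. In B6 mice *Gsta4* exceeded *Gstp1* in 7 of 16, *Gstz1* exceeded *Gsto1* in 10, and *Gstm1* exceeded *Mgst3* and *Gstp1* exceeded *Gstz1* in 12 each. In *APOE*-TR mice *Gsta4* exceeded *Gstz1* in 16 of 32. *Gstz1*, the zeta enzyme of tyrosine breakdown, was at 13.1 and 15.9 CPM per kb, and *Gsto1*, the omega enzyme that reduces dehydroascorbate, at 10.95 and 11.6. The lowest levels were those of *Gstt1*, the theta enzyme, at 5.15 and 6.91, of *Gstk1*, the kappa enzyme, at 3.08 and 3.61, and of *Mgst1* at 1.87 and 4.21 CPM per kb, and in *APOE*-TR mice *Mgst1* exceeded *Gstk1* in 20 of 32.

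**Figure D1:**
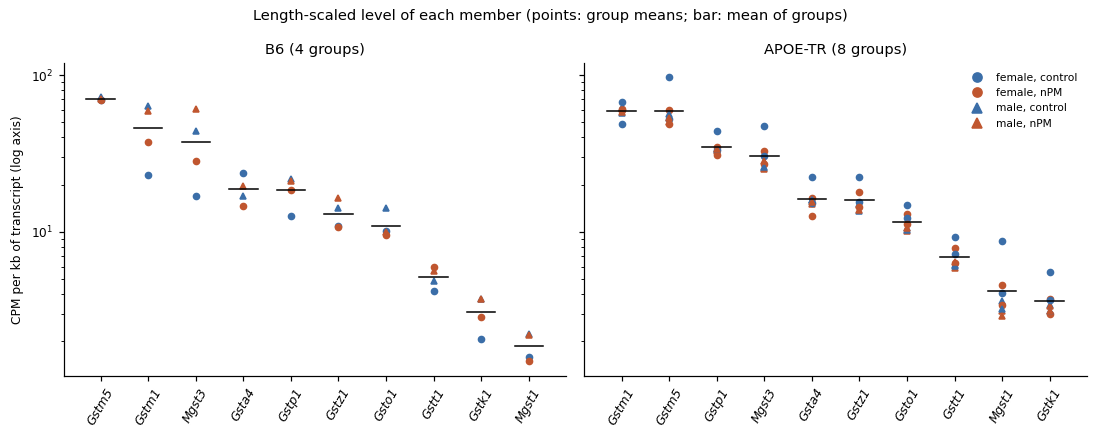
Level of each gene per length in the 2 tables, as TMM-scaled CPM per kb of transcript on a log axis; points are group means and bars their mean. *Gstm5* and *Gstm1* were highest and *Mgst1* and *Gstk1* lowest in both tables.

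Some of these levels are uncertain. Of the 50-base windows of the *Gstp1* transcript, 62.31% also occur in *Gstp2* or a pseudogene, and of those of *Gstm1* 23.15% occur in *Gstm2*, *Gstm3* or related copies, so uniquely mapped reads can miss part of these genes or be split. The other 8 genes share no such window. The genes lie, in mm10 coordinates of the B6 table, at chr19:4035407-4037922 (*Gstp1*), chr3:108012255-108017974 (*Gstm1*), chr3:107895821-107898687 (*Gstm5*), chr9:78182774-78209350 (*Gsta4*), chr10:75783813-75798585 (*Gstt1*), chr19:47854970-47864791 (*Gsto1*), chr12:87147165-87164724 (*Gstz1*), chr6:42245935-42250448 (*Gstk1*), chr6:138140316-138156756 (*Mgst1*) and chr1:167371966-167393842 (*Mgst3*). A value counts reads assigned to the annotated transcripts of the gene.

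Some genes varied more than others among B6 groups, also within the mu class. *Mgst3* had the widest range of group means in B6 mice, from 18.45 CPM in female controls to 66.92 in nPM males, a ratio of 3.63, and *Gstm1* followed, from 29.55 in female controls to 82.32 in male controls, a ratio of 2.79. *Gstm5* differed least, from 65.25 to 68.87 CPM. In *APOE*-TR mice 9 of the 10 genes had their highest group mean in *APOE*3 female controls, the group that holds controls 61 and F6. *Gstm1* instead had its lowest group mean there, 63 CPM against 87.08 in *APOE*4 female controls. The coefficient of variation within a group of 4 mice, taken as a median over groups, was 19.9% to 65.3% across genes in B6 mice and 7.8% to 18.9% in *APOE*-TR mice, with *Mgst1* at the upper end in both.

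**Figure D2:**
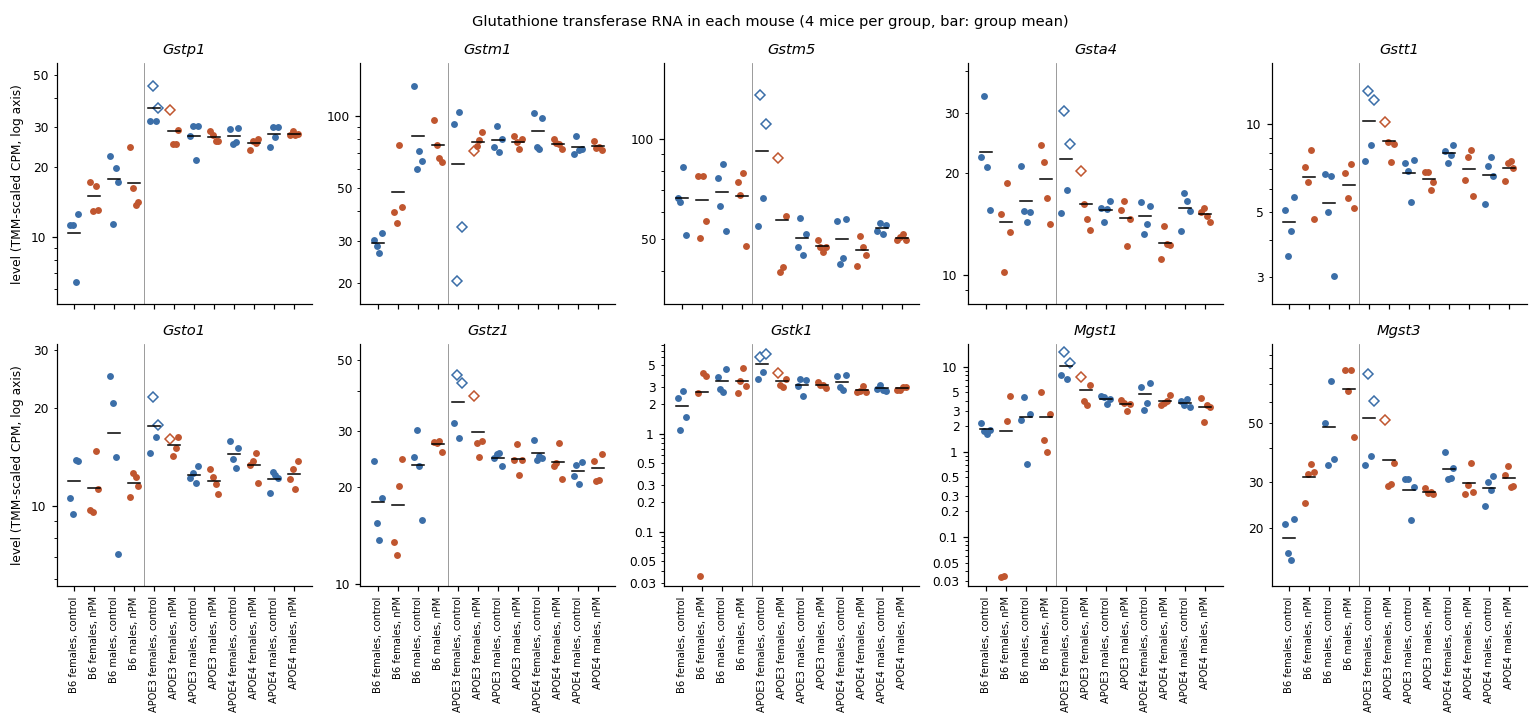
Level of each gene in each mouse, as TMM-scaled CPM on a log axis, for the 12 groups; bars are group means, blue is control air, orange is nPM, the line separates B6 from *APOE*-TR mice, and open diamonds are *APOE*3 female controls 61 and F6 and nPM 55. Both controls lie above the other *APOE*-TR females in 9 panels and below them for *Gstm1*, and 3 values of *Mgst1* and *Gstk1* in B6 nPM females are those of a gene without reads.

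In B6 females exposed to nPM, *Mgst3* rose to 1.67 times the control level, and *Gstm1*, *Gstp1* and *Gsta4* differed without passing the call rule of the study, an unadjusted p below 0.005 in limma. At that rule 1.2% of 14811 genes were called, and 1 of the 8 genes tested here was. *Mgst3* was at 20.77, 16.2, 15.23 and 21.6 CPM in the controls and at 24.96, 31.95, 34.92 and 32.63 CPM in the nPM females. Every nPM female lay above every control. The log2 difference was 0.74 (SE 0.204), a change of 67.4%, with a limma p = 0.00282, an adjusted p = 0.387 and an exact permutation p of 0.0286, the smallest that 4 against 4 mice allow. The call was lost without any of controls 41 and 42 and nPM 51, 52 and 53, with log2 differences of 0.66 to 0.84 over all mice left out. With the length slope of each mouse as a covariate the difference was 0.66 (adjusted p = 0.764) and was not called. The deposited CPM summed over all genes were 628230 to 667150 in the controls and 539695 to 590898 in the nPM females. These sums did not overlap, so nPM and this library measure cannot be told apart in B6 females.

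*Gstm1* and *Gstp1*, of the mu and pi classes, were also higher in every nPM female than in any control, without a call, so that 3 of the 8 genes did not overlap between the groups, beside 6.56% of all 14811 genes. *Gstm1* was at 30.34, 28.63, 26.75 and 32.49 CPM in controls and at 39.83, 35.65, 75.65 and 41.66 CPM in nPM females. The groups did not overlap, and nPM 52 was far above its group. The log2 difference was 0.63 (SE 0.225, adjusted p = 0.396, exact permutation p = 0.0286), 0.40 without nPM 52 and 0.35 with the length slope as a covariate. *Gstp1* was at 11.34, 11.28, 6.43 and 12.56 CPM in controls and at 17.37, 13.03, 16.7 and 13.17 CPM in nPM females. Here too the groups did not overlap, with a log2 difference of 0.54 (SE 0.268, adjusted p = 0.491) and an exact permutation p of 0.0286. *Gsta4* was at 22.32, 33.73, 20.8 and 15.47 CPM in controls and at 15.15, 10.21, 18.65 and 13.32 CPM in nPM females. Its groups overlapped, and its log2 difference was -0.65 (SE 0.271, adjusted p = 0.443, exact permutation p = 0.0571), or -0.45 without control 41.

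The rest of the genes in B6 females gave no call. *Gstt1* differed by 0.46 on the log2 scale (adjusted p = 0.612), and *Gstm5*, *Gsto1* and *Gstz1* by -0.02, -0.07 and -0.05. *Mgst1* and *Gstk1* were not tested. *Mgst1* was at 2.167, 1.768, 1.637 and 1.805 CPM in controls, had no reads in nPM 50 and 51, and was at 2.321 and 4.557 CPM in nPM 52 and 53. *Gstk1* had no reads in nPM 51 and was at 2.618, 4.119 and 3.836 CPM in the other nPM females. A count of 0 allows up to 3 reads, 0.134 CPM in nPM 50 and 0.141 CPM in nPM 51, for counting error only, and so lies below the other nPM females for both genes. The number of genes without reads was 9188 and 10259 in nPM 50 and 51, against 6948 and 6163 in nPM 52 and 53, at depths of 16.45, 15.55, 15.2 and 4.8 M reads. The summed astrocyte markers were at 3350 to 3740 CPM in the B6 female controls and 2660 to 3270 CPM in the nPM females, and the summed neuron markers at 6430 to 6990 and 4560 to 6920 CPM. Their part in these differences was not tested.

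In B6 males 0.24% of 15430 genes were called for nPM and none of the 10 genes was. At an unadjusted p under 0.05 there were 0 of the 10, beside 4.32% of all genes. *Mgst3* was at 49.77, 34.71, 71.65 and 36.47 CPM in controls and at 78.8, 65.91, 78.98 and 43.98 CPM in nPM males. The groups overlapped, with a log2 difference of 0.49 (SE 0.266, exact permutation p = 0.2). *Gsto1* differed by -0.36, *Gstt1* and *Gstz1* by 0.24, *Gsta4* by 0.20, and the other 5 by at most 0.06 in size. Of the 10 genes 4 were higher and 6 lower, with a median of -0.02. Without male control 0, which held the highest *Gstm1* and *Gsta4* of its group (133.4 and 20.97 CPM), 8 were higher and 2 lower, with a median of 0.14 and no call. *Mgst3* then differed by 0.53, *Gsta4* by 0.31, *Gstm1* by 0.20 and *Gsto1* by -0.13.

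**Figure D3:**
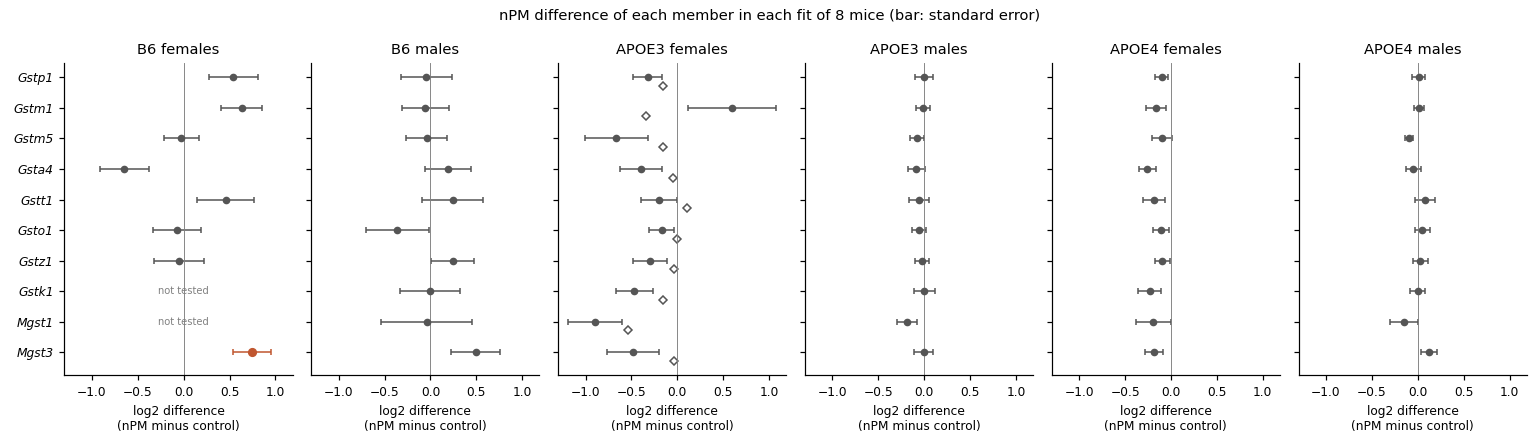
Log2 difference between nPM and control mice for each gene in the 6 strata, with bars of 1 standard error; the orange point is the 1 call, *Mgst3* in B6 females, and open diamonds are values without *APOE*3 female controls 61 and F6. *Gstk1* and *Mgst1* were not tested in B6 females, and all values in *APOE*-TR males lie between -0.19 and 0.12.

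In *APOE*3 females 9 of the 10 genes were lower with nPM than in controls and none was called, against 0.665% of 16394 genes called and 21.1% at an unadjusted p under 0.05. The median log2 difference of the 10 genes was -0.36 against a median between -0.03 and 0.01 over all genes in each comparison of this study. *Mgst1* was at 8.098, 14.72, 7.095 and 11.13 CPM in controls 52, 61, 63 and F6 and at 7.671, 3.997, 3.504 and 6.029 CPM in nPM 55, 59, 67 and 70. The highest values of each group were those of controls 61 and F6 and of nPM 55, and 1 nPM female lay above a control. The log2 difference was -0.90 (SE 0.290, adjusted p = 0.229, exact permutation p = 0.0571), -0.54 without controls 61 and F6 (adjusted p = 0.905), and -0.72 without nPM 55 as well (adjusted p = 0.108). *Gstk1* was at 3.621, 6.081, 4.229 and 6.552 CPM in controls and at 4.175, 3.155, 2.982 and 3.632 CPM in nPM females. Its groups overlapped, and its log2 difference of -0.47 (adjusted p = 0.229, exact permutation p = 0.0857) was -0.16 without controls 61 and F6.

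*Gstm1* moved against the other genes in *APOE*3 females, and its direction turned on the libraries apart. It was at 92.66, 20.4, 104.5 and 34.43 CPM in controls 52, 61, 63 and F6 and at 71.62, 74.99, 79.36 and 85.78 CPM in nPM females. The nPM females lay between the pairs of controls. The log2 difference was 0.60 (SE 0.476, adjusted p = 0.394) with all mice and -0.34 (adjusted p = 0.905) without controls 61 and F6. *Gstm5*, the neighbouring mu gene, was at 54.61, 135.0, 66.15 and 110.6 CPM in controls and at 87.68, 39.66, 41.24 and 58.71 CPM in nPM females. Its log2 difference was -0.66 (adjusted p = 0.240), and -0.16 without both controls. Without them 9 of the 10 genes were lower with a median of -0.10, 1 had an unadjusted p under 0.05, and 4.97% of all genes did. Without nPM 55 as well, 9 were again lower with a median of -0.23 and 4 had an unadjusted p under 0.05, beside 23.8% of all genes, and none of the 10 was called, beside 5.17%. With the length slope as a covariate 6 of the 10 were higher, with a median of 0.05.

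Controls 61 and F6 were far from the other controls of their group. Relative to controls 52 and 63, their mean level was 0.278 times for *Gstm1*, 2.03 times for *Gstm5*, 1.89 for *Mgst3*, 1.70 for *Mgst1*, 1.66 for *Gsta4*, 1.61 for *Gstk1*, 1.57 for *Gstt1*, 1.44 for *Gstz1*, 1.28 for *Gstp1* and 1.27 for *Gsto1*. For 9 genes both lay above all 14 other *APOE*-TR females, and for *Gstm1* both lay below all 14. Over 15972 genes both lay above in 26.8% and below in 28.3%. The *Gstm1* transcript is 1289 bases long and that of *Gstm5* 945. The longest is that of *Gstz1*, at 1656 bases, which was higher in both controls, and the others have 821 (*Gstp1*) to 1182 (*Gsto1*) bases. The part of the length slope in this pattern was not tested beyond the covariate fits.

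**Figure D4:**
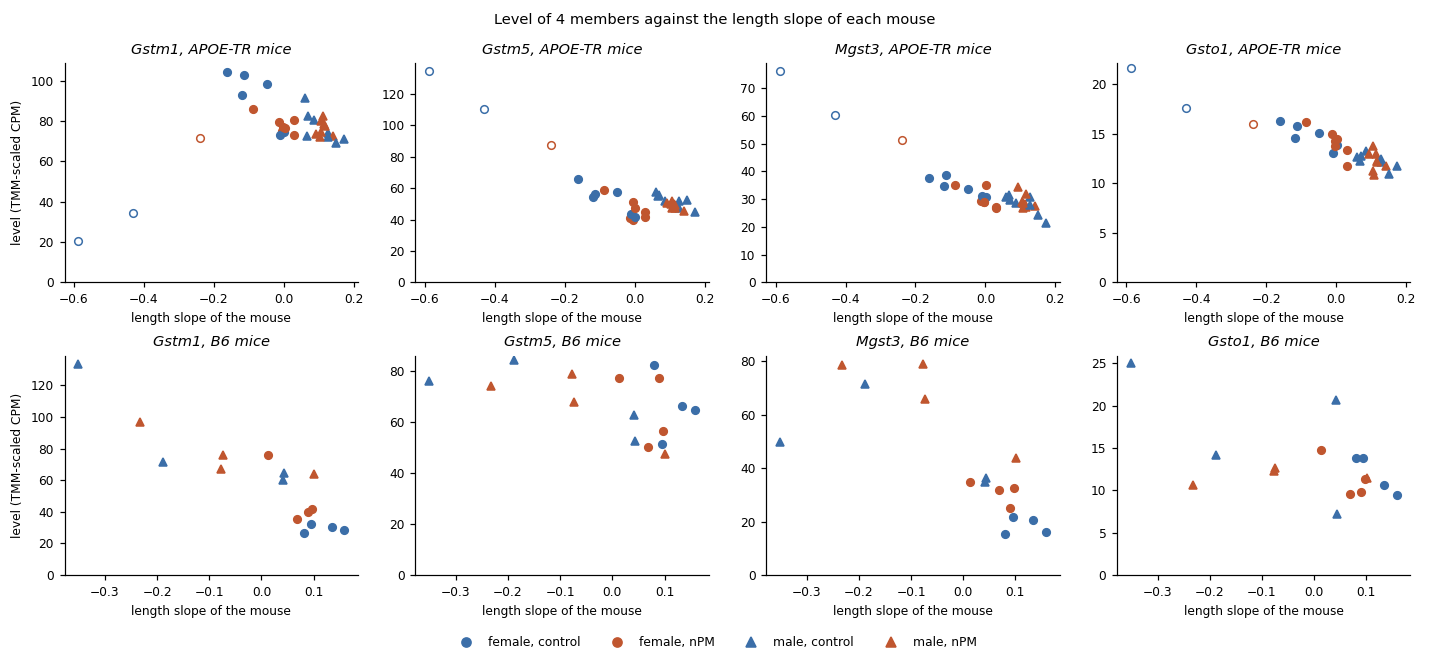
Level of *Gstm1*, *Gstm5*, *Mgst3* and *Gsto1* in each mouse, as TMM-scaled CPM, against the length slope of the mouse, for *APOE*-TR mice (top) and B6 mice (bottom); circles are females, triangles males, and open symbols the 3 *APOE*3 females that stood apart. At slopes of -0.588 and -0.431 *Gstm1* was at 20.4 and 34.43 CPM and *Gstm5* at 135.0 and 110.6 CPM.

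In *APOE*4 females all 10 genes were lower with nPM, by 0.10 to 0.26 on the log2 scale, and none was called, beside 0.272% of 16561 genes. *Gsta4* was at 16.43, 13.19, 14.13 and 15.9 CPM in controls and at 11.13, 13.91, 12.33 and 12.22 CPM in nPM females. The groups overlapped by 1 nPM female above 1 control, with a log2 difference of -0.26 (SE 0.094, adjusted p = 0.754, exact permutation p = 0.0571). *Gstk1* differed by -0.23 (adjusted p = 0.754). With the length slope as a covariate these differences were -0.09 and -0.04, and 7 of the 10 genes were then higher with nPM, with a median of 0.02. The summed choroid plexus markers were at 347.4, 43.4, 38.17 and 1178 CPM in *APOE*4 female controls 7, 21, 26 and 38 and at 20.03 to 40.01 CPM in the nPM females. In *APOE*3 females they were at 1388 CPM in control F6, at 25.97 to 70.81 CPM in the other controls and at 8.66 to 94.2 CPM in nPM females. Their part in the gene differences was not tested. In *APOE*3 males 0.154% of 16898 genes and none of the 10 were called, with differences from -0.19 for *Mgst1* to 0.00 for *Gstk1*. In *APOE*4 males 0.178% of 16870 genes and none of the 10 were called, with differences from -0.15 for *Mgst1* to 0.12 for *Mgst3*. At an unadjusted p under 0.05 limma gave 2 of the 10 genes in *APOE*3 females, 1 in *APOE*4 females and 0 in males of either allele, and edgeR on recovered reads called none in these 4 strata.

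Over all 48 mice, with sex and genotype in the fit, 1.48% of 11097 genes were called for nPM and none of the 8 genes tested was. *Gsta4* had the smallest p, with a log2 difference of -0.21 (SE 0.088, adjusted p = 0.310). *Gstm1* and *Mgst3* differed by 0.17 (adjusted p = 0.543) and 0.11 (adjusted p = 0.728), *Gstm5* by -0.17 (adjusted p = 0.390) and *Gsto1* by -0.12, and *Gstp1*, *Gstt1* and *Gstz1* by 0.01, 0.06 and -0.03. Without *APOE*3 female controls 61 and F6, 0.342% of genes and none of the 8 were called, with *Gsta4* at -0.15 (adjusted p = 0.781), *Mgst3* at 0.23 (adjusted p = 0.781) and *Gstm1* at 0.05. *Mgst3* passed the rule when the length slope was a covariate, with 0.27 (adjusted p = 0.286), beside 1.54% of all genes. The difference between the sexes in the nPM response, averaged over the genotypes, was called for 1.97% of genes and for none of the 8. *Gsta4* again had the smallest p, with a response in females lower by 0.45 than in males (SE 0.157, adjusted p = 0.256). Without controls 61 and F6 it was -0.33 (adjusted p = 0.828), with 0.505% of genes and none of the 8 called. With all mice the result lay near the rule: it passed with unscaled CPM (-0.49, adjusted p = 0.217) and when 1 of 8 mice was left out, with differences of -0.51 to -0.48. These mice were B6 female control 43, male control 0, nPM female 52 and nPM male 16, *APOE*3 female controls 52 and 63, nPM female 55 and nPM male 58.

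Between the alleles, 9 of the 10 genes were lower in *APOE*4 than in *APOE*3 female controls, 7 of them at an unadjusted p under 0.05, and none at an adjusted p below 0.05. The groups did not overlap for 3 of the 10, beside 29.1% of all genes. The same fit put 0.231% of 16419 genes past the adjusted threshold but 41.1% at an unadjusted p under 0.05. *Mgst1* was at 5.848, 3.114, 3.739 and 6.399 CPM in *APOE*4 controls 21, 26, 38 and 7, all below the 7.095 to 14.72 CPM of *APOE*3 controls. The log2 difference was -1.03 (SE 0.281, adjusted p = 0.0765, exact permutation p = 0.0286). Without *APOE*3 controls 61 and F6 it was -0.67 (adjusted p = 0.157). *Gstz1* was at 28.08, 24.38, 25.05 and 24.8 CPM in *APOE*4 controls and at 31.87, 44.89, 28.54 and 42.32 CPM in *APOE*3 controls. These did not overlap either, with a log2 difference of -0.50 (SE 0.155, adjusted p = 0.0767, exact permutation p = 0.0286) that was -0.24 without controls 61 and F6 (adjusted p = 0.157).

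The remaining allele differences in female controls rested on the same mice. *Gstp1* was at 29.21, 25.13, 25.72 and 29.57 CPM in *APOE*4 controls, below the 31.66 to 45.03 CPM of *APOE*3 controls, with a log2 difference of -0.38 (SE 0.134, adjusted p = 0.0820, exact permutation p = 0.0286). Without controls 61 and F6 it was -0.21. *Gstm5*, *Mgst3*, *Gstk1* and *Gsta4* differed by -0.79, -0.56, -0.51 and -0.50 with all mice and by -0.28, -0.11, -0.19 and -0.14 without both controls. *Gstt1* and *Gsto1* differed by -0.32 and -0.26, which became -0.01 and -0.09. *Gstm1* was higher in *APOE*4 by 0.74 (SE 0.483, adjusted p = 0.263) with all mice and lower by 0.19 without them, so that all 10 genes were then lower, with a median of -0.19, and 2 of 10 had an unadjusted p under 0.05, beside 25.3% of all genes. Without *APOE*3 control 52 instead, 7 of the 10 genes passed the adjusted threshold, from *Gstp1* at -0.44 to *Mgst1* at -1.12, as did 6416 of 16478 genes in all. With the length slope as a covariate 6 of the 10 genes were lower and 4 higher, with a median of -0.03 against -0.50 without the covariate. None of the 10 then had an unadjusted p under 0.05, beside 11.8% of all genes. *Gsta4* and *Mgst3* differed by 0.06 and 0.13 in that fit and *Mgst1* by -0.40. The summed oligodendrocyte markers were at 4830 to 6550 CPM in *APOE*3 female controls, 3880 to 5710 in *APOE*4 female controls and 3800 to 5070 in *APOE*3 nPM females. The summed microglia markers were at 328 to 420 CPM in *APOE*3 female controls, 248 to 475 in *APOE*4 female controls and 238 to 322 in *APOE*3 nPM females. Their part in the gene differences was not tested.

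**Figure D5:**
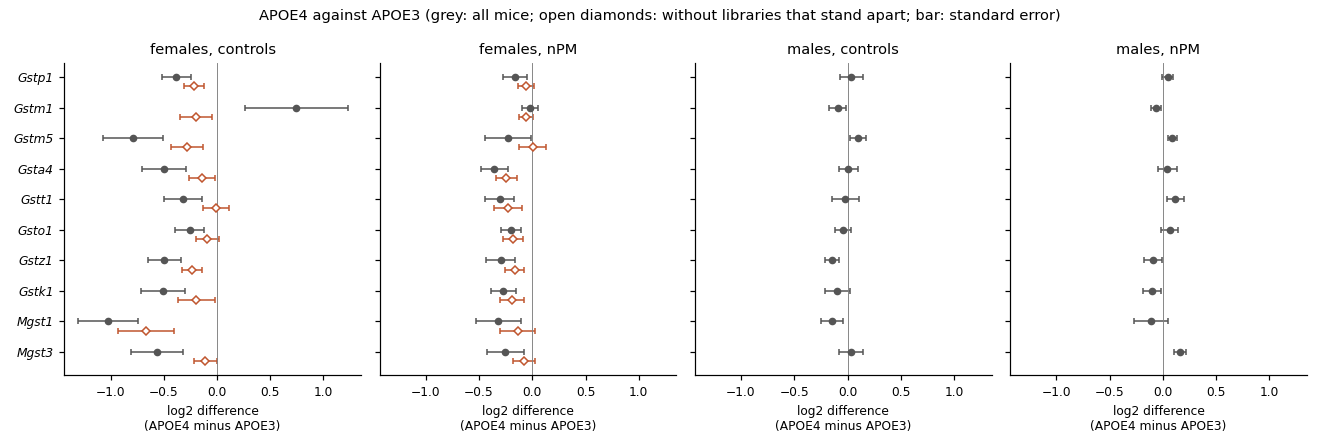
Log2 difference between *APOE*4 and *APOE*3 mice for each gene in controls and nPM mice of each sex, with bars of 1 standard error; open diamonds leave out *APOE*3 female controls 61 and F6 or *APOE*3 female nPM 55. No gene passed an adjusted p of 0.05, female controls spread from -1.03 to 0.74, and male controls from -0.15 to 0.10.

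In nPM females, which are other mice, all 10 genes were lower in *APOE*4 and none was called, beside 0.145% of 16509 genes. Without *APOE*3 nPM 55, 9 were lower and 1 higher, with a median of -0.15, and with the length slope as a covariate 6 were lower and 4 higher, with a median of -0.05. *Gsta4* had the smallest p, at 11.13, 13.91, 12.33 and 12.22 CPM in *APOE*4 against 20.3, 16.13, 14.61 and 13.51 CPM in *APOE*3 nPM females. The groups overlapped in 1 pair, and the log2 difference was -0.35 (adjusted p = 0.531, exact permutation p = 0.0571), or -0.24 without *APOE*3 nPM 55. *Gstk1* differed by -0.27 (adjusted p = 0.531) and *Gstm1* by -0.02. In male controls 0.433% of 16866 genes and none of the 10 were called, with 0 at an unadjusted p under 0.05, beside 5.82% of all genes. *Mgst1* and *Gstz1* had the lowest values there, -0.15 and -0.14. In nPM males 0.474% of 16861 genes and none of the 10 were called. *Mgst3* was at 31.68, 34.28, 28.71 and 28.89 CPM in *APOE*4 and at 28.33, 27.23, 27.47 and 26.92 CPM in *APOE*3 nPM males. The groups did not overlap, as for 5.74% of all genes, with a log2 difference of 0.16 (SE 0.060, adjusted p = 0.417) and an exact permutation p of 0.0286. Across all 48 mice 0.378% of 11097 genes and none of the 8 genes tested were called for the allele, with the smallest p for *Gstz1*, a log2 difference of -0.26 (SE 0.112, adjusted p = 0.295). Without *APOE*3 female controls 61 and F6 *Gstz1* differed by -0.16 (adjusted p = 1.00), and none of the 8 was called, beside 0.306% of genes.

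The nPM response itself was compared between the alleles. In females 3.76% of 15972 genes were called and none of the 10 was, and this comparison shares its *APOE*3 controls with the nPM and allele comparisons above. *Mgst1* had the smallest p, with a response higher in *APOE*4 than in *APOE*3 females by 0.71 (SE 0.308, adjusted p = 0.144). *Gstm1* and *Gstm5* followed at -0.76 (adjusted p = 0.187) and 0.56 (adjusted p = 0.190). Without *APOE*3 controls 61 and F6, where 1.04% of genes and none of the 10 were called, the 3 values were 0.35, 0.17 and 0.05, so *Gstm1* turned its direction. Without *APOE*3 control 63 *Gstm1* was called, at -1.10 (adjusted p = 0.0298), among 2268 of 15992 genes. With all mice the response was higher in *APOE*4 females for 9 of the 10 genes and lower for 1, with a median of 0.21. With the length slope as a covariate it was higher for 2 and lower for 8, with a median of -0.10. None of the 10 was then called, beside 1.44% of all genes. In males 0.0313% of 15972 genes and none of the 10 were called, with 0 at an unadjusted p under 0.05, beside 0.883% of all genes. The highest values in males were 0.14 for *Gstt1* and 0.13 for *Mgst3*.

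Sex was tested within each table. In *APOE*-TR mice 60.4% of 15972 genes differed by sex at an adjusted p below 0.05, and 6 of the 10 genes did, all higher in females. *Mgst1* was higher by 0.52 on the log2 scale (SE 0.126, adjusted p = 0.000839), *Mgst3* by 0.34 (SE 0.105, adjusted p = 0.00660), and *Gsto1* by 0.29 (SE 0.051, adjusted p = 2.31e-05). *Gstt1* was higher by 0.29 (adjusted p = 0.00204), *Gstz1* by 0.26 (adjusted p = 0.00131) and *Gstk1* by 0.21 (adjusted p = 0.0177). *Gsto1* lay at 11.78 to 21.59 CPM in the 16 females and at 10.87 to 13.73 CPM in the 16 males. The median of the 10 genes was 0.24. Without *APOE*3 controls 61 and F6 the 5 other differences were 0.19 to 0.39, *Gstk1* lost its call (0.13, adjusted p = 0.0626) and *Gstm1* gained it (0.12, adjusted p = 0.0377).

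Sex and library measures cannot be told apart in *APOE*-TR mice. Depth was 17.83 to 22.28 M reads in females and 22.43 to 31.26 M reads in males, and the length slope was -0.588 to 0.0307 in females and 0.06 to 0.174 in males, with no overlap in either. The 7 endothelial markers were all lower in females, with a median log2 difference of -1.33. The summed oligodendrocyte markers were at 3740 to 6550 CPM in females and 2920 to 3840 in males. Those of microglia were at 238 to 475 and 222 to 265 CPM, of astrocytes at 3560 to 4880 and 3520 to 4220, and of neurons at 4820 to 6740 and 5090 to 6130. The part of these markers in the gene differences was not tested. With the length slope in the fit, 36.8% of all genes and 6 of the 10 were called, with 8 of the 10 lower in females and a median of -0.10. The calls were *Gstm5* at -0.47, *Gsta4* at -0.35, *Gstp1* and *Mgst3* at -0.23, *Gstk1* at -0.16 and *Gstm1* at 0.55. *Gstt1*, *Gstz1* and *Mgst1* turned to -0.05 and *Gsto1* was at 0.07, without a call. Of the 6 genes called without the covariate, *Mgst3* and *Gstk1* were called with it, in the other direction.

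In B6 mice 26.1% of 13916 genes and 3 of the 8 genes tested differed by sex, all 3 lower in females, while *Mgst3* and *Gstz1* were higher in *APOE*-TR females in the fit without the length slope. *Mgst3* was at 15.23 to 34.92 CPM in the 8 females and 34.71 to 78.98 CPM in the 8 males, with 1 nPM female above 1 male control. Its log2 difference was -1.19 (SE 0.169, adjusted p = 9.63e-05). *Gstm1* was at 26.75 to 75.65 CPM in females and 59.92 to 133.4 CPM in males, where nPM 52 was the 1 female within the range of the males. Its log2 difference was -1.04 (SE 0.189, adjusted p = 0.000645). *Gstz1* was lower by 0.52 in females on the log2 scale (SE 0.179, adjusted p = 0.0363). The *Gstz1* call was lost in 8 of the 16 fits that left out 1 mouse, those without female control 41 or 42, nPM female 50 or 51, male control 2, or nPM male 10, 11 or 12, with log2 differences of -0.51 to -0.44. Without male control 0 the 3 values were -1.16, -0.90 and -0.52. With the length slope as a covariate only *Mgst3* of the 8 was called, at -0.82 (adjusted p = 0.0115), beside 8.02% of all genes. The summed neuron markers were at 4560 to 6990 CPM in B6 females and 2340 to 4980 CPM in B6 males, and their part in these differences was not tested. On the first component of the B6 table, with 29.7% of the variance, females lay at -47.0 to 0.1 and males at 14.2 to 72.2. Sex and this component cannot be told apart in B6 mice.

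Other genes of the pathway were read from lists of 18 further glutathione transferases, 16 genes of glutathione synthesis and recycling, 6 transporters of glutathione conjugates and 10 genes of the NRF2 switch and its effectors. For nPM over all mice 2 of 8 tested NRF2 genes were called and none of the other 22, beside 1.48% of all genes. *Mafg*, a small Maf partner of NRF2, rose by 0.29 on the log2 scale, and *Nfe2l2* itself fell by 0.26, both at an adjusted p = 0.301. Without *APOE*3 female controls 61 and F6 neither was called, at 0.19 and -0.24 (adjusted p = 0.780), beside 0.342% of all genes. The medians were -0.11 for the further transferases, -0.07 for synthesis and recycling, 0.14 for transport and -0.01 for the NRF2 list. In B6 females, where *Mgst3* rose, none of the 32 tested list genes was called. The smallest p values there were those of *Mafk*, at 1.08 (adjusted p = 0.396), of the transporter *Abcc1*, at 0.60 (adjusted p = 0.485), and of the glutathione synthetase gene *Gss*, at 0.75 (adjusted p = 0.506).

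In *APOE*3 females none of the list genes was called for nPM. The lowest p values were those of *Ggt7*, at 0.32, *Nfe2l2*, at -0.42, the transporter *Abcc5*, at 0.66, the quinone reductase *Nqo1*, at -0.65, and the cystine transporter *Slc7a11*, at -0.33, each at an adjusted p of 0.229. Without controls 61 and F6 they were at 0.25, -0.32, 0.41, -0.34 and -0.26 (each adjusted p = 0.905). Without nPM 55 as well, *Nfe2l2* (-0.43, adjusted p = 0.0925), *Abcc5* (0.56, adjusted p = 0.0926) and *Abcc1* (0.55, adjusted p = 0.0910) were called, beside 5.17% of all genes. In *APOE*3 males *Maff* was called at a log2 difference of 0.50 (adjusted p = 1.00), beside 0.154% of all genes, and no list gene was called in *APOE*4 mice of either sex, where *Gsto2* in females came nearest (-0.42, adjusted p = 0.754). For the allele in female controls none was called, and *Abcc5* (0.77), *Chac2*, a glutathione-degrading enzyme (-1.05), and *Gdap1* (-0.54) came nearest, each at an adjusted p of 0.0765. Without controls 61 and F6 they were at 0.52, -0.59 and -0.32, with none called. The response to nPM was called as different between alleles in females for *Abcc4*, *Gdap1* and *Chac2*, by -0.61, 0.40 and 0.79 (each at an adjusted p of 0.126). These calls stand beside 3.76% of all 15972 genes called, again with the shared *APOE*3 controls. Without controls 61 and F6 the 3 differences were -0.51, 0.18 and 0.33, and none was called, beside 1.04% of all genes.

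By sex the list genes were called at shares to be read beside 60.4% of all genes in *APOE*-TR mice and 26.1% in B6 mice. In *APOE*-TR mice 6 of 13 tested further transferases were higher and 2 lower in females, and for synthesis and recycling 7 of 16 were higher and 5 lower. Of 5 tested transporters 3 were lower, *Abcc1*, *Abcc4* and *Abcc5*, by -0.61, -0.66 and -0.63, and without controls 61 and F6 by -0.44, -0.61 and -0.53. Of 10 NRF2 genes 4 were higher and 1 lower, and *Keap1*, which holds NRF2 in the cytoplasm, was higher by 0.40, with and without both controls. Without these controls the counts higher and lower were 5 and 2, 7 and 5, 0 and 3, and 3 and 1 in the same order of lists, beside 57.7% of all genes. In B6 mice 1 of 6 tested further transferases was higher and 3 lower, 1 of 13 genes of synthesis and recycling was higher and 3 lower, no transporter of 4 was called, and 1 of 8 NRF2 genes was higher and 1 lower. *Gdap1* was higher in B6 females, by 0.48 (adjusted p = 0.00579), while *Keap1* was lower by -0.97, the transferase *Gstm7* by -1.36 and the glutathione reductase *Gsr* by -0.66.

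Genes that varied most like each transferase were ranked by Pearson's r of log2 levels, as deviations from the group mean, over 15972 genes in the 32 *APOE*-TR mice. All points of a mouse share its library, so the values describe these libraries. *Gstm5* was nearest to *Ndufa5* (r = 0.98), a subunit of respiratory complex I, and kept r = 0.93 over the 29 mice without the libraries apart and 0.30 over the 16 B6 mice. *Gstp1* was nearest to the ribosomal gene *Rplp1* (0.93, 0.89 and 0.65), and *Mgst3* to *Cox4i1* (0.95, 0.84 and 0.24), a subunit of cytochrome oxidase. *Gstm1* was nearest to *Arf3* (0.97), which fell to 0.57 over 29 mice and -0.09 in B6 mice. The leading genes of the others were *Arxes2* for *Gsta4* (0.90, 0.73 and 0.08), *Hopx* for *Gstt1* (0.89, 0.80 and 0.08), *Lamtor1* for *Gsto1* (0.88, 0.83 and 0.04), *Tifa* for *Gstz1* (0.87, 0.61 and 0.19), *Rnh1* for *Gstk1* (0.92, 0.83 and 0.65) and *Eef1a1* for *Mgst1* (0.86, 0.77 and 0.49).

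Among the 10 transferases the median r over 45 pairs was 0.68 in the 32 *APOE*-TR mice, 0.53 over the 29 mice and 0.32 in the 16 B6 mice. The 9 pairs with *Gstm1* had a median of -0.53 with the libraries apart and 0.57 without them, while the 36 pairs without *Gstm1* had 0.72 and 0.43. The opposite course of *Gstm1* was thus seen with the 3 libraries in the data and not over the other 29 mice, where all 45 pairs were positive.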

How the data were processed

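Cortex RNA of 48 mice was measured by single-end RNA-seq of stranded mRNA libraries. The authors mapped reads to mm10 (GRCm38) with TopHat2 2.0.8b in Partek Flow, counted unique reads by RefSeq gene and deposited CPM, and the step that scaled reads to CPM is not given in the sources used here. Deposited values up to 20 times the lowest of a mouse were whole multiples of it, within 0.02, for 95.2% to 96.1% of genes in *APOE*-TR mice and 84.3% to 98.0% in B6 mice, so reads were recovered as value over lowest value less 1 (estimates in B6 mice). Listings with repeated symbols, 4 per table, were dropped, leaving 27082 and 18939 genes. The column of *APOE*3 female control F6 matches no sample's title and was placed by its labelled group.

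CPM were scaled by TMM (edgeR 4.0.16), taken as log2 with 0.5 added, and tested two-sided with limma 3.58.1 in R 4.3.3 (lmFit, eBayes with trend) over genes above the lowest value in every mouse of the fit. Log2 differences are on that scale and understate low genes. Calls for nPM and for differences of responses used an unadjusted p below 0.005, and calls for allele and sex a Benjamini-Hochberg adjusted p below 0.05 over all genes tested. Stratum fits used 8 mice, and exact permutation tests their 70 labelings. Transcript lengths came from the GENCODE annotation. Scripts were tested on simulated data. edgeR on recovered reads, voom, other pseudocounts, filters and scalings, ComBat (sva 3.50.0) and leaving out mice were alternatives. The genes, lists and comparisons were chosen with earlier results of these data known. Named beside the 10 genes were list genes that passed the call rule or had the smallest p, and the genes of highest r. P-values set a difference against the spread between the mice of a fit and treat each mouse as independent. The air was delivered to sealed chambers, and no label names the chamber of a mouse, so chamber and nPM cannot be told apart.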

Additional observations from a re-analysis of the deposited data

Results flagged for a closer look

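In 5 of 120 gene and group combinations, 1 of the 4 mice lay far from the other 3 by Dixon's criterion, where chance gives about 1 in 20. *Gstm1* was at 75.65 CPM in B6 nPM female 52, against 35.65 to 41.66 in the other 3, and at 133.4 CPM in B6 male control 0, against 59.92 to 71.33. In the same male control *Gsta4* was at 20.97 CPM, against 14.29 to 15.4. *Gstz1* was at 25.73 CPM in B6 nPM male 16, below the 27.61 to 27.97 of the others, and *Gstk1* at 3.047 CPM (83 reads) in *APOE*4 nPM female 39, against 2.685 to 2.723.

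In 3 of 40 combinations of a gene with a pair of strata, every nPM mouse lay above the mean of its controls in one stratum and below it in the other. Over the 11097 genes above the lowest value in every mouse the share was 4.37% of 44388 combinations. *Gstp1* differed by 0.54 with nPM in B6 females and by -0.32 in *APOE*3 females, 0.867 apart on the log2 scale, and by -0.10 in *APOE*4 females, 0.646 apart. *Gstm1* differed by 0.63 in B6 females and by -0.17 in *APOE*4 females, 0.799 apart. The *Gstp1* value in *APOE*3 females uses controls 61 and F6, at 45.03 and 36.03 CPM against 31.66 to 31.8 in the other controls, and was -0.15 without them, when the nPM females no longer all lay below the control mean. *Gstm1* in *APOE*3 females, at -0.34 without them, then met the criterion. The difference was not tested in any of them, since B6 and *APOE*-TR mice stand in separately normalized tables and were exposed separately.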

How the results depend on the processing

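No paired analysis was possible because the replicate numbers are animal numbers and the groups compared share fewer than 2 of them. Of 498 recomputed counts of genes called, 475 stayed within 1.5 times the reported count, and of 851 recomputed single differences 797 kept their direction and side of the threshold. The length slope as a covariate, added after seeing the data, gave 1 call instead of 0 for nPM in all mice (*Mgst3*), 0 instead of 1 in B6 females and 1 instead of 3 for sex in B6 mice. It turned the allele difference in female controls to 0.0625 for *Gsta4* and 0.13 for *Mgst3*, and the sex difference in *APOE*-TR mice to -0.0492 for *Gstt1*, -0.0493 for *Gstz1*, -0.0494 for *Mgst1*, -0.16 for *Gstk1* and -0.23 for *Mgst3*. A variance shared over all groups of a table gave 0 calls for nPM in B6 females, 3 in *APOE*3 females (*Gstm5*, *Gstk1* and *Mgst1*, among 5008 of 15972 genes) and 9 for the allele in female controls (all but *Gstt1*, among 8830 genes). *APOE*-TR mice alone gave 1 call for the allele (*Gstz1*, adjusted p = 0.0224), beside 948 of 15972 genes in all. Unscaled CPM gave 1 for the difference of responses between the sexes, beside 246 of 11097 genes in all. Leaving out 1 mouse gave 0 to 1 calls for nPM in B6 females and 0 to 7 for the allele in female controls. The 7 came without *APOE*3 control 52, with 6416 of 16478 genes called. Such fits gave 0 to 1 calls for each of the responses by sex and by allele in females. For sex in B6 mice they gave 2 to 3, and *Gstz1* was lost in 8 of 16 fits. edgeR on recovered reads called the same number of the 10 genes in each *APOE*-TR comparison, with 121, 26, 41 and 35 genes in all for nPM in *APOE*3 females and males and *APOE*4 females and males, and 9560 for sex. The cause of these changes was not tested. *Mgst1* and *Gstk1* had no reads in 3 B6 values, in mice at 16.45 and 15.55 M reads, where levels below 0.134 to 0.141 CPM could not be told from none.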
